A study of Homo sapiens with 45 samples.

Results

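Oxidative phosphorylation is carried out by complexes I to V of the mitochondrial inner membrane, whose subunits are encoded by both the mitochondrial and the nuclear genome. The members described here are the protein-coding genes whose GENCODE symbol starts with MT-, NDUFA, NDUFB, NDUFC, NDUFS, NDUFV, UQCR, COX4 to COX8 or ATP5, or is SDHA, SDHB, SDHC, SDHD or CYC1, without the NDUFAF assembly factors. This choice by name finds 105 of the 58233 genes in the tables, of which 13 lie in the mitochondrial genome and 92 in the nuclear genome. It uses no measured value. It also takes in the readthrough genes NDUFC2-KCTD14 and ATP5MF-PTCD1, which join a member to its neighbour.

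Complexes I and II pass electrons from NADH and succinate to ubiquinone, complex III passes them on to cytochrome c, and complex IV, cytochrome c oxidase, passes them to oxygen. Complexes I, III and IV pump protons across the inner membrane, and complex V, the ATP synthase, uses the gradient to make ATP. Mitochondrial DNA encodes hydrophobic core subunits of complexes I, III, IV and V, and its genes are transcribed as long precursor RNAs from both strands. The nuclear genome encodes the other subunits, all of complex II, and the proteins that copy, transcribe and translate mitochondrial DNA. Neurons are known to depend on oxidative phosphorylation, while pluripotent cells favour glycolysis.

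Polyadenylated RNA was sequenced from cells derived from the established human embryonic stem cell line H9 during differentiation towards motor neurons. Before day 0 the cells were cultured with CHIR99021, bFGF, SB431542, DMH1 and a ROCK inhibitor. On day 0, cells were moved to medium with RA (retinoic acid) at 100 nM and SAG at 500 nM, an agonist of the Hedgehog pathway receptor Smoothened, again with a ROCK inhibitor that was later removed, and the medium was replaced every other day. The 45 libraries are 3 from each of days 1, 2 and 4 to 15 and 3 from day 0, labelled as the control, so that time, RA, SAG and replating cannot be told apart after day 0.

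The labels call the replicates only bioreps of 1 cell line, so all p-values measure the spread between these libraries, which may be technical. Library totals ran from 22835854 to 39066286 counts. All 5 markers of neuromesodermal progenitors had a mean of at least 1 CPM (counts scaled to library size) on day 0 and none did on day 15, when TBXT and CDX1 were at 0. All 7 motor neuron markers reached that level on days 8 and 15. In bulk RNA, fewer cells of a type and less RNA per cell cannot be told apart. Levels are CPM scaled with TMM factors unless called TPM, which are scaled by gene length as well. They are given as mean ± SD with n = 3 libraries, and log2 changes are given ± SE.

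The mitochondrially encoded members took more reads than all nuclear members together in every library. Their share of the counts lay between 1.286% and 4.151% over the 45 libraries, while the nuclear members held 0.6633% to 0.7957%. The mitochondrial share was 1.894%, 1.692% and 2.494% on day 0, 2.829%, 4.151% and 3.026% on day 1, 1.472%, 1.729% and 1.286% on day 8, and 3.124%, 3.293% and 2.943% on day 15. The libraries of day 1 all lay above those of day 0, and those of day 15 above those of days 0 and 8, while days 0 and 8 overlapped. The nuclear share averaged 0.7832 ± 0.016% on day 0, 0.6895 ± 0.012% on day 1, 0.7106 ± 0.0062% on day 8 and 0.6828 ± 0.01% on day 15. Counts of the mitochondrial members divided by those of the nuclear members gave a ratio of 4.569 ± 0.23 on day 15 and 2.107 ± 0.33 on day 8. The libraries of the 2 days did not overlap in this ratio.

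**Figure D1:**
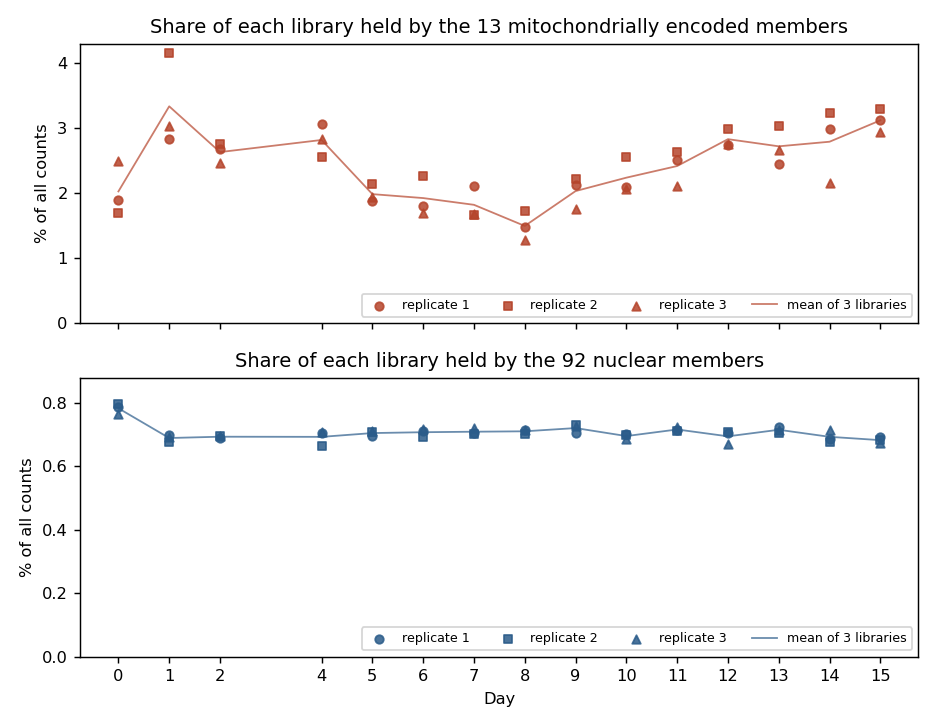
Percent of all counts of a library (y axes) held by the 13 mitochondrially encoded members and by the 92 nuclear members on each day (x axis); each marker is 1 library and the line is the mean of 3. The mitochondrial share has a mean of 3.335% on day 1, 1.496% on day 8 and 3.12% on day 15, while the nuclear share stays between 0.6633% and 0.7957%.

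Per gene length, the core subunits of cytochrome c oxidase stood highest on day 15. MT-CO1, which holds the oxygen-reducing site, had 11510 ± 1000 TPM on day 15 and 5293 ± 1100 TPM on day 0. MT-CO2, which takes electrons from cytochrome c, had 8505 ± 220 TPM on day 15, and MT-CO3 had 7469 ± 480 TPM. MT-ND6, a complex I subunit and the sole protein of the light strand, was the lowest complex I member of its genome on all 15 days, with 233 ± 29 TPM on day 15 and 79.17 ± 12 TPM on day 0. On day 15 the medians of the nuclear members were 310 TPM for complex IV, 252 TPM for complex V, 193 TPM for complex III, 115 TPM for complex I and 81.8 TPM for complex II. The most abundant nuclear member on that day was ATP5F1B, the catalytic beta subunit of ATP synthase, at 689.9 ± 4.3 TPM, followed by COX7C of complex IV at 583.9 ± 5.4 TPM.

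All 13 mitochondrial members passed the filter on low counts and all 13 differed between days (edgeR quasi-likelihood F test over the 15 days), as did 91.5% of the 19436 genes tested. Each had its lowest daily mean on day 8. The highest mean fell on day 1 for 10 of them and on day 15 for MT-ND5, MT-ND6 and MT-ATP8. The ratio of the highest to the lowest daily mean CPM had a median of 2.5 over the 13 and ran from 1.92 to 3.23. Of the 86 nuclear members that passed the filter, 83 differed between days, with a median ratio of 1.35.

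**Figure D2:**
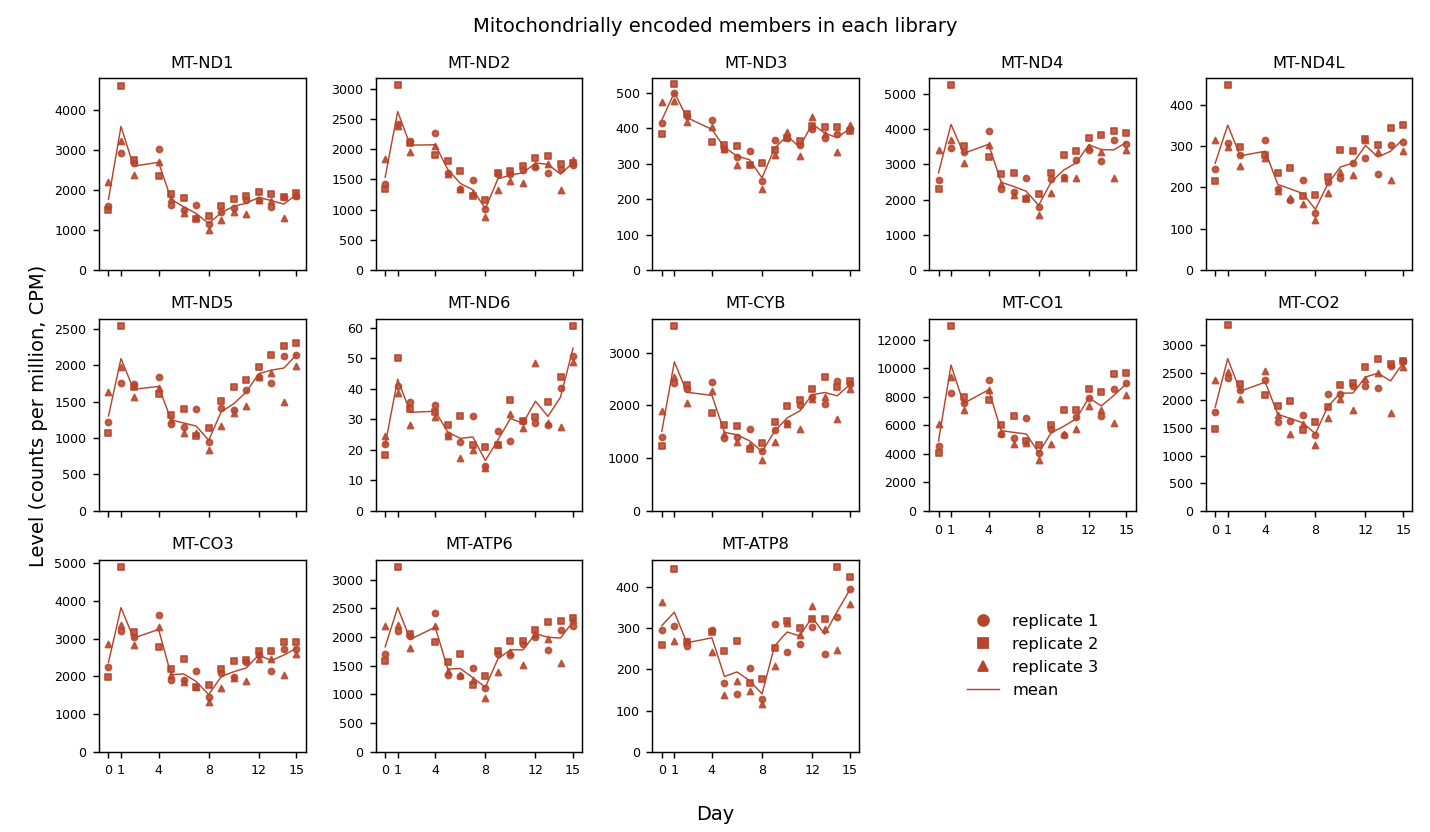
Level in CPM (y axes, each on its own scale) of the 13 mitochondrially encoded members in each of the 45 libraries by day (x axes); markers are libraries and the line is their mean. Every member has its lowest mean on day 8, and on day 1 the library of replicate 2 is the highest for all 13.

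On day 1 the mitochondrial transcripts were up. Against day 0, 12 of the 13 rose (adjusted p under 0.05, edgeR quasi-likelihood test with Benjamini-Hochberg adjustment over all genes) and none fell, with a median log2 change of 0.68. Of all genes tested, 30.1% were called higher and 31.7% lower. MT-CO1 had 8295, 12970 and 9413 CPM on day 1, against 4543, 4057 and 6100 CPM on day 0. No day 1 library overlapped day 0, and replicate 2 of day 1 and replicate 3 of day 0 were the highest of their days. The log2 change was 1.06 ± 0.17 (edgeR adjusted p = 3.4e-06). MT-ND1, a core subunit of the complex I membrane arm, rose by 1.02 ± 0.16 and MT-CYB, cytochrome b of complex III, by 0.90 ± 0.16. MT-ATP8, a small subunit of the ATP synthase membrane part, had 304.3, 442.8 and 268.5 CPM on day 1, against 295.2, 259.2 and 364 CPM on day 0. Its groups overlapped, and its log2 change of 0.15 ± 0.23 missed the threshold (edgeR adjusted p = 0.61). The count depended on the libraries used: 7 of the 13 rose without replicate 2 (4991 of 19456 genes). When only the libraries of these days were fitted, 6 rose (5709 of 16898 genes). The median log2 change was 0.358 without replicate 2. Markers moved on the same day: the 6 markers of dividing cells summed to 3951 to 4112 CPM on day 1 and 2328 to 2380 CPM on day 0, and the 5 neuromesodermal markers to 38.58 to 40.15 CPM on day 1 and 1242 to 1365 CPM on day 0. The 6 neural progenitor markers summed to 4114 to 4439 CPM on day 1, when all 6 had a mean of at least 1 CPM, and 738.4 to 892.4 CPM on day 0, when 4 did. The part of these markers in the rise was not tested.

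The members that changed least on day 1 were the shortest genes. MT-ATP8 spans 207 bases, MT-ND4L 297 and MT-ND3 346, and their log2 changes were 0.15, 0.44 and 0.24. MT-CO1 spans 1542 bases. Not every member followed gene length. MT-ND6, with 525 bases, had 43.21 ± 6 CPM on day 1 and 21.66 ± 3.2 CPM on day 0. MT-ND5, the longest at 1812 bases, had 2092 ± 410 CPM on day 1 and 1304 ± 290 CPM on day 0. Over the 13 genes, the day 1 change and gene length had a Spearman's rho of 0.64. The same value was 0.082 for day 4 over day 1, -0.11 for day 8 over day 4, -0.038 for day 15 over day 8, 0.36 for day 15 over day 0, and 0.59 for the difference of odd and even days from day 10 on, whose median over the 13 was 0.05. These are descriptions over 13 genes that share libraries and precursor RNAs. The effective length of MT-ATP8 relative to MT-ND5 lay between 0.06326 and 0.06378 in all libraries.

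**Figure D3:**
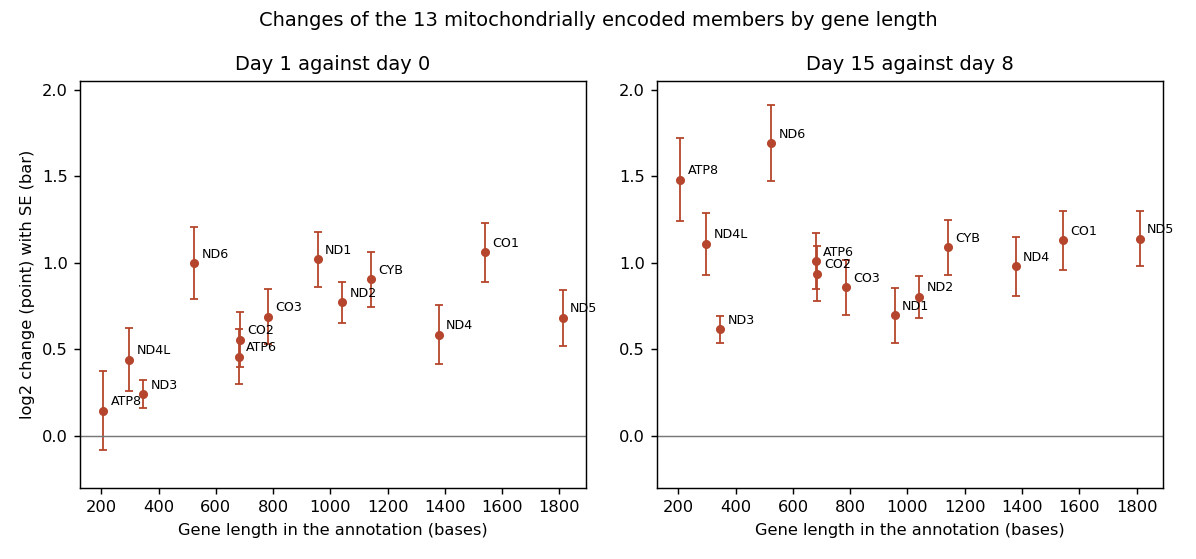
The log2 change ± SE (y axes) of the 13 mitochondrially encoded members against gene length in bases (x axes), for day 1 against day 0 and for day 15 against day 8. The 3 shortest genes change least in the day 1 panel, where rho is 0.64, and rho is -0.038 for day 15.

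Some mitochondrial genes share bases with a neighbour, so their counts depend on how reads were split. MT-ATP8 overlaps MT-ATP6 over 46 bases at chrM:8527-8572, and MT-ND4L overlaps MT-ND4 over 7 bases at chrM:10760-10766 (GRCh38 with GENCODE release 29, plus strand). Both windows are shown with 20 bases on each side because they mark what part of these members is ambiguous. Capitals mark the shared bases.
MT-ATP8/MT-ATP6: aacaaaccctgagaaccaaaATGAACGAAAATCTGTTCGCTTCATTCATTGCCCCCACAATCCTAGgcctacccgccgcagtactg
MT-ND4L/MT-ND4: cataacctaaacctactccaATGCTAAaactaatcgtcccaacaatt
Each pair is known to be carried on a bicistronic messenger. The TPM of MT-ATP8 divided by that of MT-ATP6 averaged 0.9245 ± 0.075 on day 15, 0.6672 ± 0.051 on day 8 and 0.8976 ± 0.026 on day 0. This ratio ran from 0.517 to 0.8364 within day 5 alone and from 0.517 to 1.053 over all libraries. Over all libraries the TPM of MT-ND4L divided by that of MT-ND4 lay between 0.4817 and 0.6158. Nuclear pseudogenes can share reads as well, and MTATP6P1, a copy of MT-ATP6, was counted at 405.4 ± 13 CPM on day 15 and 215.5 ± 38 CPM on day 8.

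Few mitochondrial members were called between days 1 and 4. Against day 1, 3 of 13 fell by day 4 and none rose (22.8% of all genes called lower and 24.4% higher). These were MT-ND1, MT-ND2 and MT-ND3, of the 7 members of complex I. All 13 log2 changes were negative, from -0.415 to -0.211. MT-CYB of complex III changed by -0.368 and was not called. MT-ND3 had 424, 362.6 and 404.8 CPM on day 4, against 500.9, 526 and 476.4 CPM on day 1. Its groups did not overlap, and its log2 change was -0.34 ± 0.079 (edgeR adjusted p = 0.00055). The count was 1 without replicate 2 (3437 of 19456 genes lower). It was also 1 without replicate 2 of day 1 alone (3980 of 19816 genes) and without replicate 2 of day 4 alone (4004 of 19793 genes).

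By day 8 all 13 had fallen. Against day 4, 13 of 13 were lower (26% of all genes were called lower and 27.1% higher) with a median log2 change of -0.97. For each of the 13, every day 8 library lay below every day 4 library, which was so for 28.5% of all genes tested. MT-ND1 had 1160, 1340 and 993 CPM on day 8, against 3026, 2362 and 2695 CPM on day 4. The groups were well apart, and the log2 change was -1.21 ± 0.16 (edgeR adjusted p = 1.5e-07), the lowest of the 13. MT-CO3, a core subunit of cytochrome c oxidase, changed by -1.10 ± 0.16 and MT-ND3 least, by -0.61 ± 0.079. In steps of 1 day, 5 of 13 fell between days 4 and 5 (2.78% of all genes called lower) and 2 between days 7 and 8 (4.58%). None was called between days 5 and 6 or days 6 and 7 (edgeR, with 0 at an unadjusted p under 0.05 in both, where 8.43% and 6.33% of all genes were called in either direction).

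Cell type markers moved over the same days. The 10 neuron markers summed to 6691 to 7342 CPM on day 8 and 1877 to 1961 CPM on day 4, and all 10 had a mean of at least 1 CPM on both days. The 6 markers of dividing cells, MKI67 and TOP2A among them, summed to 2000 to 2100 CPM on day 8 and 3068 to 3395 CPM on day 4. The part of either in the fall was not tested.

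Between days 8 and 15 the direction turned. All 13 members rose (24.9% of all genes were called higher and 25.8% lower), with a median log2 change of 1.01. For each of the 13, every day 15 library lay above every day 8 library, which was so for 28.4% of all genes tested. MT-ND6 had 50.84, 60.52 and 48.67 CPM on day 15, against 14.59, 20.97 and 14.04 CPM on day 8. The groups were far apart, and its log2 change of 1.69 ± 0.22 (edgeR adjusted p = 7.3e-08) was the highest of the 13. Whether counting used strand is not given in the sources used here, and without it heavy-strand RNA over MT-ND6 cannot be told apart from its own.

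MT-ATP8 had 395, 424 and 358.1 CPM on day 15, against 127.3, 177.4 and 116.7 CPM on day 8, without overlap, a log2 change of 1.48 ± 0.24. MT-CO1 had 8956, 9667 and 8118 CPM on day 15, against 4040, 4607 and 3604 CPM on day 8, also without overlap, a change of 1.13 ± 0.17. MT-ND3 rose least, by 0.62 ± 0.079. On day 9, 7 of 13 were already higher than on day 8 (10.5% of all genes called higher). No later step of 1 day was called for any of the 13 in edgeR, where at an unadjusted p under 0.05 there was 1 between days 11 and 12 and 1 between days 14 and 15. Of all genes, 29.6% were called in either direction between days 9 and 10, 5.55% between days 10 and 11, 3.41% between days 11 and 12, 3.52% between days 12 and 13, 0.314% between days 13 and 14 and 4.05% between days 14 and 15. The 10 neuron markers summed to 5116 to 6172 CPM on day 15 and 6691 to 7342 CPM on day 8. The 6 glial markers summed to 273.7 to 396.4 CPM on day 15, when 4 had a mean of at least 1 CPM, and 148.3 to 150.8 CPM on day 8, when 3 did. The 6 neural progenitor markers summed to 1350 to 1571 CPM on day 15 and 3184 to 3340 CPM on day 8. Not every marker followed its sum. The means of the neuron markers MAP2, NEFL and RBFOX3 were higher on day 15 than on day 8, and that of the glial marker GFAP was lower. SOX2, a progenitor marker, had 249 ± 20 CPM on day 15 and 228 ± 5.5 CPM on day 8. The other markers of these lists moved with their sums. The part of any marker in the rise was not tested.

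At the end of the course, the share of mitochondrial members called above day 0 was near that of all genes. On day 15, 6 of 13 were higher and none lower (40.3% of all genes called higher and 36.2% lower). The log2 change was 1.30 ± 0.21 for MT-ND6, 0.86 ± 0.17 for MT-CO1, 0.72 ± 0.16 for MT-ND5, 0.66 ± 0.16 for MT-CYB, 0.51 ± 0.16 for MT-CO2 and 0.40 ± 0.17 for MT-ND4. MT-ND1 had 1862, 1930 and 1866 CPM on day 15, against 1600, 1504 and 2210 CPM on day 0. Its groups overlapped, and its log2 change was 0.09 ± 0.16 (edgeR adjusted p = 0.62). Differences between members were not tested. The number called higher depended on the libraries and the scale. Without replicate 3 of day 0, which held the highest value of its day for all 13, 10 of 13 were called higher (7768 of 19764 genes). Without replicate 1 it was 4 (7046 of 19503 genes), and without replicate 2 also 4 (7252 of 19456 genes). Limma on log2(TPM + 1) called all 13 higher, where 8492 of 18075 genes were called higher and the median of all genes was 0.22.

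Within a day the 13 moved together. On each of the 15 days a single library held the highest CPM for at least 9 of the 13, and this was replicate 2 on 12 days, replicate 1 on 2 and replicate 3 on 1. The median coefficient of variation between the 3 libraries was 23.6% on day 1 for the mitochondrial members and 3.54% for the nuclear ones. On day 12 it was 5.17% for the mitochondrial members and 5.7% for the nuclear ones. On day 14, replicate 3 was the lowest library for all 13 mitochondrial members and the highest for 65 of 86 nuclear ones. On day 0, replicate 3 was the highest for all 13 and the lowest for 55 of 86. What sets these libraries apart was not tested. The mitochondrial ribosomal RNA MT-RNR1 varied more, and was counted at 1523 to 7715 CPM within day 4 alone.

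The nuclear members moved in both directions. Against day 0, day 1 had 18 of 86 higher and 38 lower (30.1% and 31.7% of all genes), with a median log2 change of -0.12. Day 4 against day 1 had 10 higher and 20 lower (24.4% and 22.8% of all genes), with a median of -0.04. For day 8 against day 4 it was 16 higher and 25 lower (27.1% and 26% of all genes), with a median of -0.04. For day 15 against day 8 it was 10 higher and 29 lower (24.9% and 25.8% of all genes), with a median of -0.08.

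Apart from day 1, these splits depended on the scale. In limma on log2(TPM + 1), over 18075 genes, day 4 against day 1 had 17 nuclear members higher and 7 lower (4987 and 2792 of all genes), and day 8 against day 4 had 34 higher and 9 lower (5757 and 3015 of all genes). The median member changed sign there, to 0.0266 for day 4 against day 1, where all genes had a median of 0.066, and to 0.0806 for day 8 against day 4, where all genes had 0.082. Day 15 against day 8 had 17 higher and 17 lower (4746 and 3530 of all genes), with a median of -0.0131, and day 1 against day 0 had 14 higher and 40 lower (4655 and 5318 of all genes). For day 4 against day 1, 6 were higher without replicate 3 (4205 of 19538 genes). The number lower was 8 without replicate 1 (3199 of 19503 genes) and 7 without replicate 2 (3437 of 19456 genes). It was 9 without replicate 1 of day 1 (3974 of 19822 genes) and 12 without replicate 2 of day 4 (4004 of 19793 genes). For day 8 against day 4, 10 were higher without replicate 2 (4496 of 19456 genes) and 14 lower without replicate 1 (3948 of 19503 genes). Without a filter on low counts, day 4 against day 1 had 8 higher and 9 lower (4269 and 4007 of 37223 genes). In the same fit, day 8 against day 4 had 14 and 16 (5132 and 4305 of 37223 genes).

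Over the whole course the nuclear members ended lower relative to the other genes. Day 15 against day 0 had 10 of 86 higher and 55 lower (40.3% and 36.2% of all genes), with a median log2 change of -0.23, where the median of all genes tested was 0.066. On the log2(TPM + 1) scale 22 were higher and 29 lower, and the median member changed by 0.0021 while the median of all genes stood at 0.22. Relative to all genes, the members' median was thus -0.219 in TPM and -0.293 in CPM. By complex in CPM, 21 of 38 members of complex I were lower and 5 higher, 3 of 4 of complex II were lower and none higher, 8 of 10 of complex III were lower and 1 higher, 8 of 14 of complex IV were lower and 2 higher, and 15 of 20 of complex V were lower and 2 higher.

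**Figure D4:**
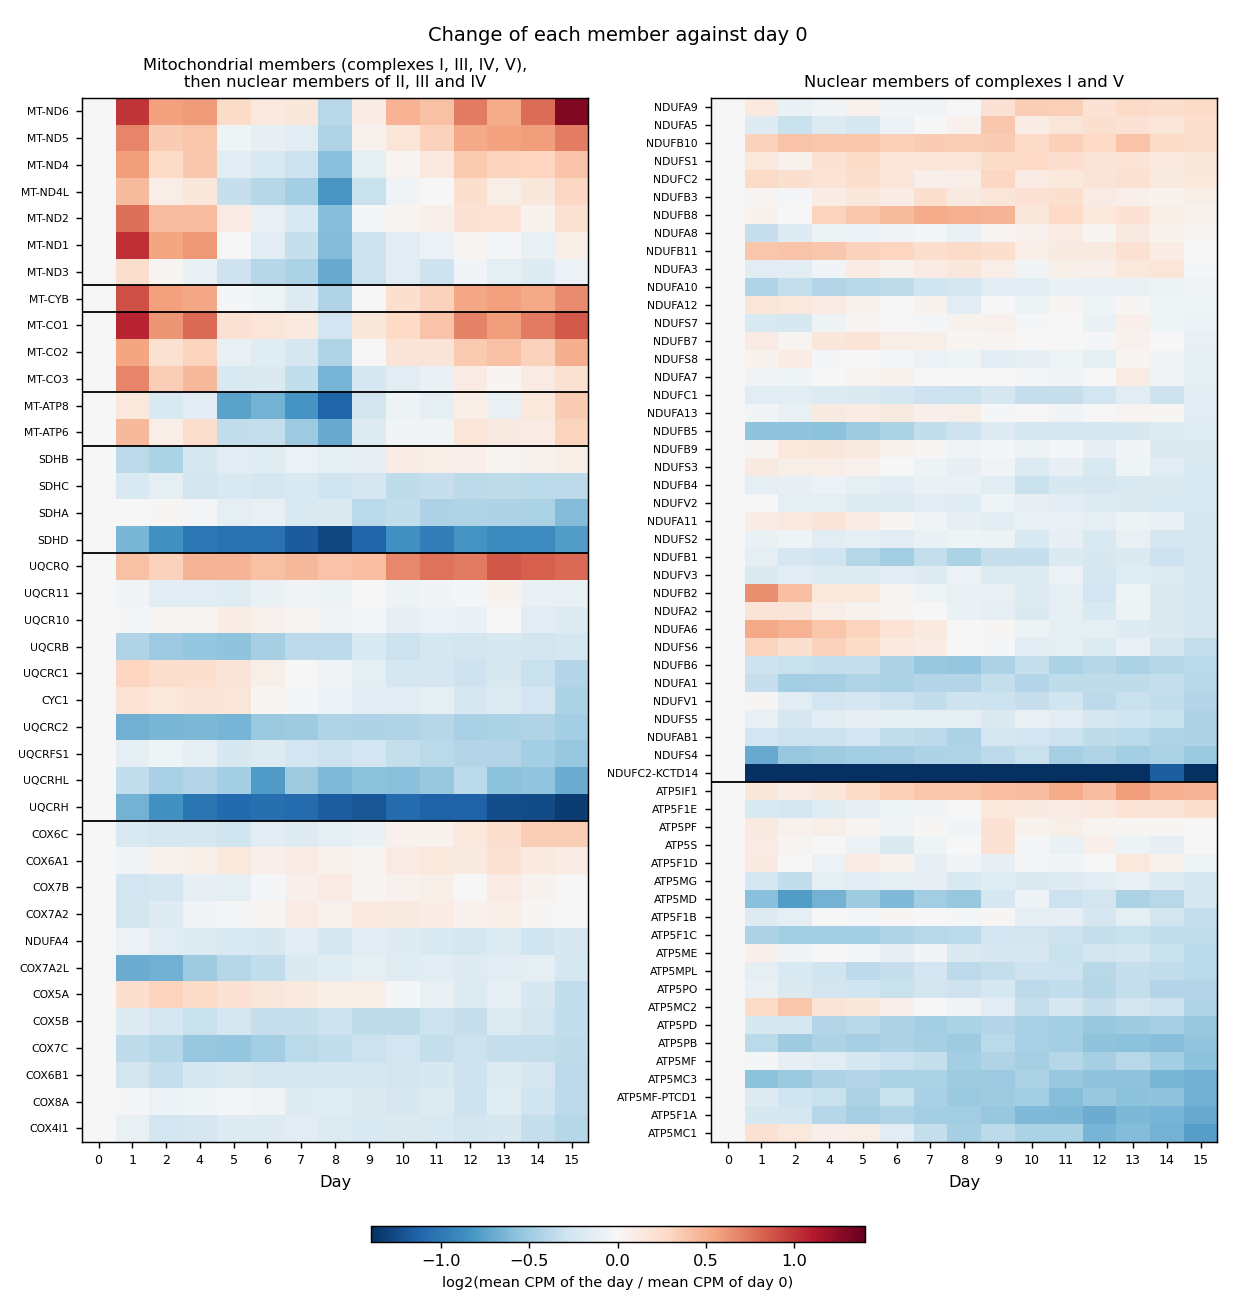
The log2 ratio of each day's mean CPM to that of day 0 (colour, saturating at 1.4) for 97 members by day (x axis), grouped by genome and complex; COX6B2 and NDUFA4L2, under 2 CPM, are left out. The 13 mitochondrial members are high on day 1 and lowest on day 8, while the nuclear UQCRH has its lowest mean on day 15 and UQCRQ ends above day 0.

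Among the nuclear members of complex I, the early rises were led by NDUFB2, an accessory subunit of the membrane arm. It had 61.74, 62.91 and 69.05 CPM on day 1, against 41.22, 41.02 and 40.71 CPM on day 0. The groups were well apart, with a log2 change of 0.66 ± 0.064 (edgeR adjusted p = 1.5e-11), and it was back at 45.51 ± 3.9 CPM on day 4 and 34.74 ± 0.66 CPM on day 15. The accessory subunits NDUFA6, NDUFB11 and NDUFB10 rose on day 1 too, by 0.53 ± 0.048, 0.39 ± 0.067 and 0.32 ± 0.056, and NDUFA6 fell by 0.39 ± 0.048 on the log2 scale between days 4 and 8. NDUFS4, an accessory subunit next to the NADH-oxidising module, had 30.75, 28.88 and 27.86 CPM on day 1, against 49.03, 47.78 and 46.28 CPM on day 0. It fell without overlap by 0.71 ± 0.062 on the log2 scale (edgeR adjusted p = 1.2e-12), rose by 0.21 ± 0.063 between days 1 and 4, and stood at 33.36 ± 1.1 CPM on day 15. In GENCODE release 29, exons of NDUFB2 overlap ADCK2 on the same strand and BRAF on the other, and NDUFA6 and NDUFB11 overlap antisense genes, so these levels may hold reads of both.

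NDUFB8, another accessory subunit of the membrane arm, rose between days 1 and 4 (0.26 ± 0.06) and days 4 and 8 (0.19 ± 0.059). It then had 72.92, 72.87 and 66.5 CPM on day 15, against 98.23, 91.43 and 98.95 CPM on day 8. The groups did not overlap, and this change of -0.44 ± 0.059 (edgeR adjusted p = 4.2e-08) was the largest among the called nuclear members of the complex between these days. NDUFA8 rose by 0.25 ± 0.046 between days 1 and 4. NDUFA9, at the junction of the arms, fell by 0.19 ± 0.078 on the log2 scale between days 1 and 4 and rose by 0.26 ± 0.076 between days 8 and 15. Between days 4 and 8, NDUFA5 and NDUFB5 rose by 0.25 ± 0.09 and 0.28 ± 0.061, while NDUFS6 and NDUFA11 changed by -0.32 ± 0.055 and -0.29 ± 0.064.

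Among subunits of the NADH-oxidising module, NDUFV1, which binds NADH, had 70.14 ± 3.6 CPM on day 15 and 92.89 ± 2 CPM on day 0 (log2 change -0.41 ± 0.054). NDUFS1, which carries iron-sulfur clusters, had 145.5 ± 5.2 CPM on day 15 and 130 ± 4 CPM on day 0 (0.16 ± 0.044). In TPM neither was called, with 105.6 ± 7.4 TPM on day 15 and 108.7 ± 1.8 TPM on day 0 for NDUFV1, and 80.13 ± 4.1 TPM on day 15 and 76.92 ± 2.5 TPM on day 0 for NDUFS1. NDUFAB1, the mitochondrial acyl carrier protein, fell by 0.43 ± 0.054 on the log2 scale. The readthrough NDUFC2-KCTD14, named after its values were seen, had 0.6964, 0.553 and 1.075 CPM on day 15, against 3.604, 3.179 and 4.396 CPM on day 0, and shares exons with NDUFC2, which had 60.71 ± 1.2 CPM on day 15 and 55.01 ± 4.1 CPM on day 0.

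Complex II, succinate dehydrogenase, has 4 subunits, of which 3 were called lower on day 15 than on day 0. SDHD, a membrane anchor, had 21.91, 24.47 and 26.07 CPM on day 15, against 44.46, 43.16 and 36.59 CPM on day 0. The groups did not overlap and the log2 change was -0.78 ± 0.076 (edgeR adjusted p = 7.2e-12). On day 8 it had 16.79, 17.83 and 16.74 CPM, below both, and it rose by 0.50 ± 0.079 between days 8 and 15. SDHA, the flavoprotein that oxidises succinate, was not called on day 1 or between days 1 and 4, and had 89.89, 88.3 and 88.25 CPM on day 15, against 137, 132.2 and 136.2 CPM on day 0. It fell without overlap by 0.61 ± 0.043 on the log2 scale, and SDHC, the other anchor, by 0.37 ± 0.031. SDHB, the iron-sulfur subunit, had 31.86 ± 1 CPM on day 15 and 29.99 ± 2.4 CPM on day 0 and was not called. An exon of SDHD overlaps TIMM8B on the other strand.

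The SDHD promoter, from RefSeq on GRCh38.p14, is shown because it holds 3 of the 4 motifs searched in all promoters. The promoter of SDHB, which was not called between days 0 and 15, also holds 3 of the 4, with YY1 in place of NRF1. NRF1, ETS factors such as GABPA, YY1 and estrogen-related receptors are known regulators of respiratory chain genes. Capitals mark, in order, GCGCA, any base and GCGC of NRF1, CCGGAAG of the ETS family on the other strand, and AAGGTCA of estrogen-related receptor alpha, on the other strand. The window chr11:112086623-112086922 on the plus strand runs from 250 bases before the start to 50 after it.
SDHD: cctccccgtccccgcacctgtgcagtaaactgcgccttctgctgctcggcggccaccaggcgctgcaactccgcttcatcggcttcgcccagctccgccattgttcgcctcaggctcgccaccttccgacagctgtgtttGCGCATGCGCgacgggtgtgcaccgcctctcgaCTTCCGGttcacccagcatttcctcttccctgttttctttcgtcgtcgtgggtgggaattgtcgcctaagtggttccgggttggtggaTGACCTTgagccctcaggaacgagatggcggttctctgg
A promoter was found for 71 of the 92 nuclear members. The NRF1 letters, on either strand, were in 23.9% of these, in 6.28% of all 27305 promoters of the table and in 8.61% of the 15293 promoters of protein-coding genes. The ETS letters were in 28.2% of the members, 10.7% of all and 14.4% of the protein-coding promoters. The YY1 letters AAGATGGC were in 15.5% of the members, 3.03% of all and 3.98% of the protein-coding ones, and the receptor letters in 12.7% of the members, 3.97% of all and 3.13% of the protein-coding ones. At least 1 of the 4 was in 57.7% of the members, 21.3% of all and 26.4% of the protein-coding promoters, and in no member promoter did matches of different motifs overlap. A match describes letters and is not a bound site.

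Complex III held both the largest fall and the largest rise between days 0 and 15 among nuclear members with a mean of at least 10 CPM. UQCRH, the hinge protein next to cytochrome c1, had 67.75, 64.65 and 71.15 CPM on day 15, against 170.2, 176.2 and 163.4 CPM on day 0. All day 15 libraries lay far below all day 0 libraries, and the log2 change was -1.32 ± 0.043 (edgeR adjusted p = 1.4e-26). In CPM it fell by 0.66 ± 0.042 on day 1, 0.36 ± 0.043 between days 1 and 4, 0.13 ± 0.043 between days 4 and 8 and 0.17 ± 0.043 between days 8 and 15. In TPM its mean was 520.9 on day 0, 323.4 on day 1, 265 on day 4, 263 on day 8 and 274.4 on day 12, so the later falls depended on the scale. Its near copy UQCRHL, which can share its reads, had 3.941 ± 0.48 CPM on day 15 and 6.377 ± 0.99 CPM on day 0. UQCRQ, a small subunit that contacts cytochrome b, had 53.97, 50.33 and 51.94 CPM on day 15, against 31.01, 30.91 and 28.26 CPM on day 0. It rose without overlap, by 0.79 ± 0.078 (edgeR adjusted p = 9.7e-12), with rises of 0.41 ± 0.08 on day 1 and 0.39 ± 0.077 between days 8 and 15. An exon of UQCRQ overlaps GDF9 on the other strand.

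The promoters of this pair are shown because the genes moved apart while each holds the ETS letters once and none of the other 3 motifs. Capitals mark the ETS letters, which are on the other strand in UQCRH and on the plus strand in UQCRQ. The windows are chr1:46303448-46303747 and chr5:132866392-132866691, both on the plus strand of GRCh38.p14, from RefSeq.
UQCRH: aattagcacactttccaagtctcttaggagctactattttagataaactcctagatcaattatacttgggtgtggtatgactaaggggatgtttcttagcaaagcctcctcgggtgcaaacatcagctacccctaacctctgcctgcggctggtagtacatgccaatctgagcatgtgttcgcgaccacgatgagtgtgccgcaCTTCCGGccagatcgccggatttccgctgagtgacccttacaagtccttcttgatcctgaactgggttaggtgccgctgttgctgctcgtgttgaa
UQCRQ: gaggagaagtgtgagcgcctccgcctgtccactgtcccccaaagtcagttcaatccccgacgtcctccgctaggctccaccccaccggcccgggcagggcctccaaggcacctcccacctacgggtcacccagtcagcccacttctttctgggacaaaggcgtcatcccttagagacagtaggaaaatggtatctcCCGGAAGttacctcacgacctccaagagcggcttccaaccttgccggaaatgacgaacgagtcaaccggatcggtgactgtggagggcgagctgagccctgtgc
The core proteins of the matrix arm differed at the start, since on day 1 UQCRC1 rose by 0.30 ± 0.056 and UQCRC2 fell by 0.67 ± 0.047 on the log2 scale. On day 15 both were below day 0. UQCRC1 had 122.9 ± 5.5 CPM on day 15 and 163.8 ± 3.1 CPM on day 0, and UQCRC2 had 141.6 ± 3.2 CPM on day 15 and 196.6 ± 7.1 CPM on day 0. CYC1, cytochrome c1, fell by 0.45 ± 0.067 and UQCRFS1, the Rieske iron-sulfur protein, by 0.53 ± 0.043 on the log2 scale.

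**Figure D5:**
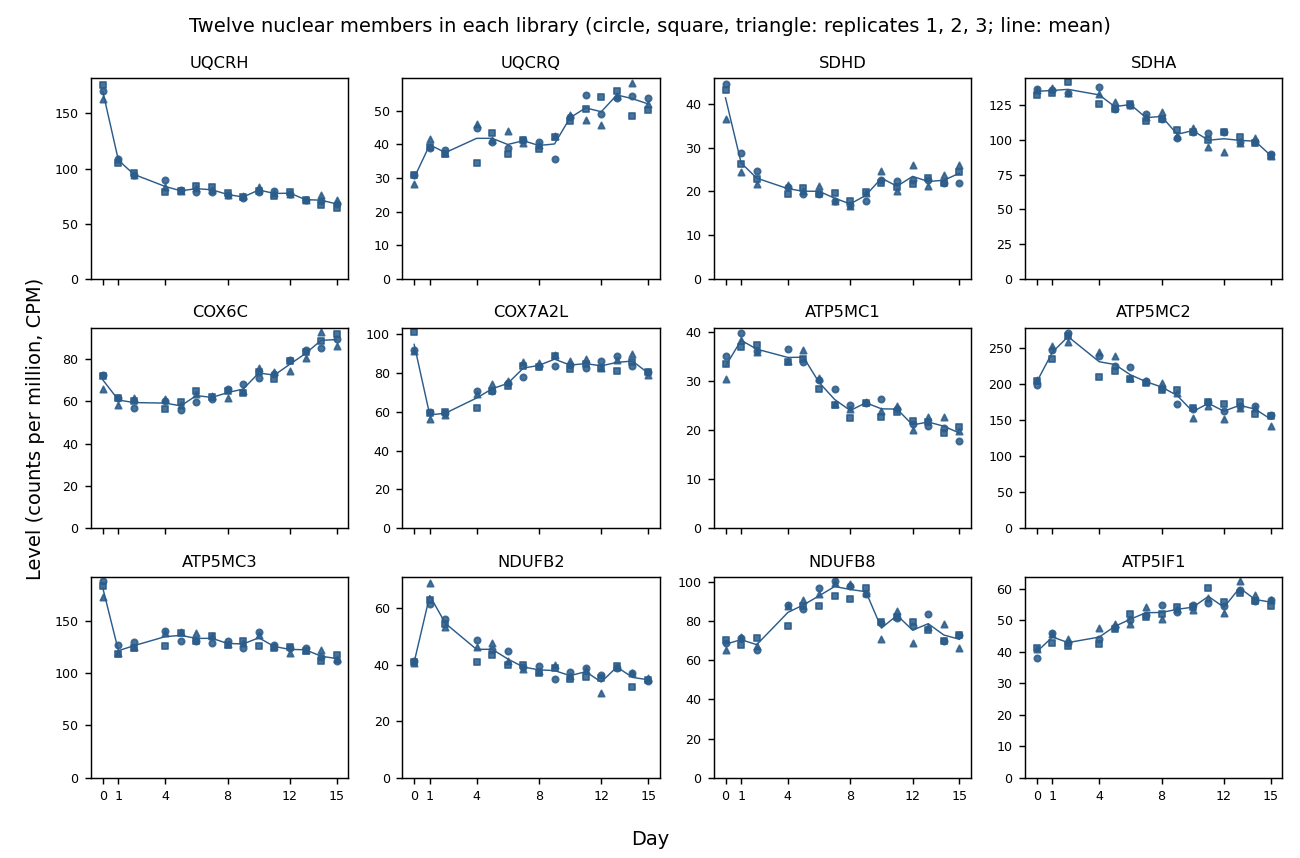
Level in CPM (y axes, each on its own scale) of 12 nuclear members named in the text in each of the 45 libraries by day (x axes); markers are libraries and the line is their mean. UQCRH and SDHD drop on day 1, NDUFB2 has its highest mean, 64.56 CPM, on day 1, and UQCRQ, COX6C and ATP5IF1 end above day 0.

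Complex IV has tissue-specific paralogs, and the reads lay almost all on the widely expressed forms. COX6A2 and COX7A1, forms of heart and skeletal muscle, had 0 and 1 counts in 45 libraries. COX4I2, a form known from lung, had 1 count, and COX7B2 and COX8C, forms known from testis, had 0 and 60. COX6B2, another form known from testis, had 0.2705 ± 0.1 CPM on day 15 and 0.2765 ± 0.14 CPM on day 0. Of these, COX6B2 was tested and the other 5 were not, nor was ATP5MGL of complex V with 52 counts. On day 15 their paralogs had 107.7 ± 1.4 CPM for COX6A1, 73.92 ± 0.6 CPM for COX7A2, 172.5 ± 4.9 CPM for COX4I1, 53.24 ± 2.4 CPM for COX7B and 67.17 ± 5.7 CPM for COX8A. NDUFA4L2, a paralog of NDUFA4 induced by hypoxia in other cells, had few counts, at 1.045, 0.8164 and 0.6841 CPM on day 15, against 0.212, 0.1834 and 0.4024 CPM on day 0. Its groups did not overlap (log2 change 1.66 ± 0.38, edgeR adjusted p = 0.0002). An exon of NDUFA4L2 overlaps SHMT2 on the other strand, so these few counts may hold reads of both. NDUFA4 had 133.1 ± 4.2 CPM on day 15 and 155 ± 6.8 CPM on day 0, a fall in CPM that was a rise of 0.0824 on the log2(TPM + 1) scale.

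COX6C, a small subunit of the complex, rose late. It had 89.31, 91.99 and 86.29 CPM on day 15, against 65.84, 64.88 and 61.65 CPM on day 8. The groups were apart and the log2 change was 0.48 ± 0.045 (edgeR adjusted p = 1.9e-11). COX5A, a subunit on the matrix side, had 85.16, 86.77 and 79.35 CPM on day 15, against 114, 109.6 and 112.4 CPM on day 8. It fell without overlap by 0.42 ± 0.05 on the log2 scale. COX7A2L, known for its part in joining complexes III and IV into supercomplexes, had 59.72, 59.16 and 56.33 CPM on day 1, against 91.95, 101 and 91.29 CPM on day 0. It fell without overlap by 0.70 ± 0.046 on the log2 scale (edgeR adjusted p = 3.8e-16), then rose by 0.20 ± 0.047 between days 1 and 4 and 0.32 ± 0.046 between days 4 and 8. COX7A2 rose by 0.21 ± 0.046 between days 1 and 4 and COX7B by 0.23 ± 0.053 between days 4 and 8. In CPM, COX4I1, COX5A, COX5B, COX6B1, COX7C and COX8A were lower on day 15 than on day 0, from -0.34 ± 0.05 for COX5A to -0.40 ± 0.045 for COX4I1. The fall of COX7C was smaller in TPM, with a mean of 583.9 TPM on day 15 and 612.4 TPM on day 0. For day 15 against day 0, COX7A2L changed by -0.25 ± 0.046 in CPM and by 0.00312 on the log2(TPM + 1) scale.

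The 3 genes for the c-ring protein of ATP synthase, which differ in their import signals and are known to give the same mature protein, had different courses. ATP5MC1 had 17.84, 20.67 and 19.84 CPM on day 15, against 35.25, 33.5 and 30.52 CPM on day 0. It fell without overlap by 0.77 ± 0.064 on the log2 scale (edgeR adjusted p = 1.2e-13), and by 0.54 ± 0.064 between days 4 and 8. ATP5MC3 had 111.2, 117 and 113.2 CPM on day 15, against 187.4, 183.5 and 172.2 CPM on day 0, and fell by 0.58 ± 0.043 on day 1. ATP5MC2 rose by 0.27 ± 0.051 on day 1 and ended at 151.2 ± 8.2 CPM on day 15, against 203.1 ± 3.6 CPM on day 0. Per gene length on day 15, ATP5MC2 stood at 476.8 ± 27 TPM, ATP5MC3 at 264 ± 6.4 TPM and ATP5MC1 at 82.78 ± 6.7 TPM.

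The catalytic head of the synthase ended lower and its inhibitor higher. ATP5F1A, the alpha subunit, had 536.2, 534.5 and 530.2 CPM on day 15, against 865.8, 878.5 and 864.5 CPM on day 0. The libraries of each day lay close together and the log2 change was -0.71 ± 0.033 (edgeR adjusted p = 2.7e-21). ATP5F1B had 589.1 ± 14 CPM on day 15 and 735.6 ± 3.7 CPM on day 0 (-0.32 ± 0.037). Its fall was smaller in TPM, with a mean of 689.9 TPM on day 15 and 741.6 TPM on day 0. ATP5IF1, the inhibitor that blocks ATP hydrolysis by the synthase, had 56.55, 54.41 and 56.29 CPM on day 15, against 38.1, 41.12 and 40.86 CPM on day 0. It rose without overlap by 0.48 ± 0.045 (edgeR adjusted p = 2.9e-12). ATP5F1E, the epsilon subunit, rose by 0.23 ± 0.042. ATP5MD, a small subunit of the membrane part, fell by 0.58 ± 0.094 on day 1 and rose by 0.31 ± 0.093 between days 8 and 15. ATP5MF and its readthrough ATP5MF-PTCD1, which share exons, fell by 0.58 ± 0.051 and 0.67 ± 0.085 between days 0 and 15, and their reads cannot be told apart with certainty.

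Medium was replaced every other day, and odd days were set against even days from day 10 on. Days 11, 13 and 15 against days 10, 12 and 14 called none of the 13 mitochondrial members in edgeR or DESeq2, with 0 at an unadjusted p under 0.05 in edgeR and a median log2 difference of 0.05. It called 1 nuclear member higher and 2 lower, where 5.69% of all genes were called higher and 9.77% lower. These were ATP5IF1 at 0.07 ± 0.026, SDHA at -0.09 ± 0.025 and UQCRH at -0.08 ± 0.025 (edgeR adjusted p = 0.046, 0.0089 and 0.021). The odd and even libraries of all 3 overlapped. With days 11 and 13 set against days 10, 12 and 14 weighted so that a steady drift cancels, 4 nuclear members were higher and none lower (452 and 710 of the 19436 genes tested). The median of the 13 mitochondrial members was -0.0623 in that contrast. No nuclear member was called for odd against even days without replicate 1, without replicate 2, with only the libraries of these days, or without a filter on low counts, and without replicate 3 only SDHA was.

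Nuclear genes that maintain and express mitochondrial DNA ended lower. Of 16 such genes, 16 were lower and none higher on day 15 than on day 0 (36.2% of all genes lower and 40.3% higher). Their median log2 change was -0.60. In log2(TPM + 1), 11 were lower and none higher (4687 and 8492 of 18075 genes). TFAM, which packages mitochondrial DNA and activates its transcription, had 44.41 ± 3.4 CPM on day 15 and 106.8 ± 7.3 CPM on day 0 (-1.27 ± 0.081). LRPPRC, which stabilises mitochondrial messengers, had 212.2 ± 16 CPM on day 15 and 554.8 ± 45 CPM on day 0 (-1.39 ± 0.064). Between days 4 and 8, when all 13 mitochondrial members fell, 11 of the 16 genes were lower and none higher in CPM (26% of all genes lower and 27.1% higher). In log2(TPM + 1), 5 were lower and none higher (3015 and 5757 of 18075 genes). Between days 8 and 15, when all 13 mitochondrial members rose, 8 of the 16 genes were lower and none higher in CPM (25.8% of all genes lower and 24.9% higher). In log2(TPM + 1), 3 were lower and 2 higher (3530 and 4746 of 18075 genes). POLRMT, the mitochondrial RNA polymerase, had 35.11 ± 0.31 CPM on day 15 and 50.74 ± 1.9 CPM on day 8 (-0.53 ± 0.067).

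Other mitochondrial lists also had more members lower than higher on day 15 against day 0. Of all genes tested, 36.2% were lower and 40.3% higher in CPM, and 4687 lower and 8492 higher of 18075 in log2(TPM + 1), a scale on which each of these lists had fewer members lower. Of mitochondrial ribosomal protein genes, 65 of 78 were lower and 8 higher (median -0.42), with 43 and 10 in log2(TPM + 1). Of genes of the citric acid cycle and pyruvate dehydrogenase, 14 of 18 were lower and 1 higher (median -0.41; 9 and 3 in TPM, median -0.12). Of outer membrane and other abundant mitochondrial proteins, 11 of 12 were lower and 1 higher (median -0.69; 9 and 1 in TPM, median -0.42). Assembly factors of complex I had 9 of 14 lower and 3 higher (median -0.29; 6 and 4 in TPM, median -0.04), and those of complexes III to V had 22 of 33 lower and 5 higher (median -0.37; 13 and 8 in TPM, median -0.14).

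Of 10 regulators of mitochondrial biogenesis, 4 were lower and 3 higher on day 15 than on day 0 in CPM (36.2% and 40.3% of all genes). Their median log2 change was -0.0259. In log2(TPM + 1), 4 were lower and 4 higher (4687 and 8492 of 18075 genes). PPARGC1A, a coactivator that drives mitochondrial biogenesis in muscle and brown fat, had 5.625 ± 0.83 CPM on day 15 and 0.9597 ± 0.13 CPM on day 0 (2.55 ± 0.21). ESRRG, an estrogen-related receptor, had 46.66 ± 1.5 CPM on day 8 and 13.36 ± 0.74 CPM on day 4 (1.81 ± 0.21), and 23.16 ± 5.4 CPM on day 15 (-1.01 ± 0.2 against day 8). Its part in the levels of the members was not tested.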

How the data were processed

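RNA-seq libraries of 45 samples, 3 on each of 15 days, were analysed. Per the labels, polyadenylated RNA was extracted with Qiagen RNeasy Plus Micro kits and libraries were made with KAPA mRNA kits; the submitters' processing notes name bcl2fastq 2.20.0, RSEM and GRCh38. Not given in the sources used here are the annotation release, the RSEM version and whether counting used strand. The authors deposited expected counts per gene (RSEM estimates, 92.5% of them whole), which were rounded, and TPM, which sum to 999999 to 1000001 per library.

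Of 58233 genes, 57895 matched GENCODE release 29 by gene ID, and the other 338 held 0.0276% of counts. Library totals of 22835854 to 39066286 counts set the precision. Genes were filtered with filterByExpr by day, which left 19436, scaled with TMM and fitted in edgeR 4.0.16 (R 4.3.3) with day as factor over all 45 libraries (robust quasi-likelihood test, 30 residual degrees of freedom, Benjamini-Hochberg adjustment over all genes, threshold 0.05). The test was checked on counts simulated for days 8 and 15, with independent genes that all had the same spread. That check does not cover genes that move together within a day or vary more between replicates, as the mitochondrial members did. Alternatives were DESeq2 1.42.0, DESeq2 size factors, TMM without mitochondrial genes, no filter, a replicate block, only the days compared, limma 3.58.1 on log2(TPM + 1) with a pseudocount of 1 for genes of at least 1 TPM in 3 libraries, other late days, and libraries left out. Tables and figures were made with Python 3.11.15, pandas 2.3.3 and matplotlib 3.10.9.

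Members and lists were chosen with earlier results of these data known, and day 15 against day 0 was added after the values were seen. Named were all mitochondrial members, up to 5 called nuclear members per direction and comparison (at least 10 CPM, no overlap), and a panel of paralogs and core subunits. TFAM, LRPPRC, POLRMT, PPARGC1A and ESRRG, from the other lists, were named outside these rules and do not stand for their lists. Replicates were grouped by the labels' day. Promoters are from RefSeq tables.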

Additional observations from a re-analysis of the deposited data

How the results depend on the processing

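Over all alternatives, 332 counts of called members stayed within 1.5 times the reported count and 40 moved further. Counts that were 0 in both fits are among the 332. Of the values for single called members, 2686 kept direction and call, 227 kept direction but missed the threshold and 4 changed sign. Of the median changes, 178 moved by less than the spread between replicates and 8 by more, among them the nuclear medians of 0.0266 for day 4 against day 1, 0.0806 for day 8 against day 4 and 0.0021 for day 15 against day 0 in TPM, which turned sign. The cause of these changes was not tested. In limma on log2(TPM + 1), mitochondrial members lower on day 4 than day 1 numbered 1, against 3 reported, and those higher on day 15 than day 0 numbered 13, against 6. Nuclear members higher or lower in that fit numbered 17 and 7 for day 4 against day 1, 34 and 9 for day 8 against day 4, 17 and 17 for day 15 against day 8, 3 and 1 for odd against even days, and 22 and 29 for day 15 against day 0. With no filter on low counts, 9 were lower on day 4 than day 1, 16 were lower on day 8 than day 4, and odd against even days had 0 higher and 0 lower. With only the days compared, 6 mitochondrial members were higher on day 1, and odd against even days had 0 nuclear members higher and 0 lower. DESeq2 gave 2 higher for odd against even days, and the weighting against drift, which uses fewer days, 4 higher and 0 lower.

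Leaving out replicates or single libraries gave 7 to 12 mitochondrial members higher on day 1, 1 to 4 lower on day 4 than day 1, and 4 to 10 higher on day 15 than day 0. For nuclear members it gave 6 to 14 higher and 7 to 18 lower on day 4 than day 1, 10 to 17 higher and 14 to 28 lower on day 8 than day 4, and 0 higher and 0 to 1 lower on odd than even days. The 4 changes of sign were ATP5F1A on day 8 against day 4 (0.0326 in TPM), COX7A2L and NDUFA4 on day 15 against day 0 (0.00312 and 0.0824 in TPM), and COX6B1 with day 14 in place of day 15 against day 8 (0.00686).

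With the replicate number as a block, day 1 against day 0 had 12 mitochondrial members higher, with 17 nuclear members higher and 38 lower. Day 4 against day 1 had 9 nuclear members higher and 20 lower, and the counts of the other comparisons were the same as without it. Over all genes tested, deviations of same-numbered libraries from their day's mean correlated at -0.0862 to 0.0708, while replicate 2 held the highest level of at least 9 of the 13 mitochondrial members on 12 days. Members with few counts, such as COX6B2 and NDUFA4L2, are limited by depth.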
